A study of Mus musculus with 29 samples.

Results

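The genes described here are those of the TREM2 receptor pathway and of disease-associated microglia, measured at their baseline in the healthy mouse brain. The 10 genes (Trem2, Tyrobp, Inpp5d, Cd68, Cd9, Lpl, Spp1, Clec7a, Itgax and Cst7) were taken by gene symbol from the 36172 gene rows of the count table, and each matched 1 row. Trem2 encodes a lipid-sensing surface receptor of microglia, and Tyrobp encodes DAP12, the adaptor through which the receptor signals to the kinase SYK. Inpp5d encodes SHIP1, a lipid phosphatase that dampens this signal. In models of amyloid disease and demyelination, microglia near the lesion raise Cst7, Lpl, Spp1, Itgax, Clec7a, Cd9 and other genes, and much of that shift depends on Trem2, so the level in undisturbed microglia is the reference for it.

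RNA came from brains of Cx3cr1-Cre/Ert2+; NuTRAP+ mice and Aldh1l1-Cre/Ert2+; NuTRAP+ mice, about 3 months old and of both sexes, that had all received tamoxifen on 5 consecutive days. Tamoxifen-induced Cre recombination turns on EGFP-L10a, a tagged ribosomal protein, in cells that use the Cx3cr1 promoter (microglia and the macrophages at the borders of the brain) or the Aldh1l1 promoter (astrocytes). Brains of the Cx3cr1-NuTRAP line were collected 3 to 4 weeks after tamoxifen. For the Aldh1l1-NuTRAP line an interval of 1 week is given for the cytometry and histology of the study, and that for the RNA is not given in the sources used here, so line and interval cannot be told apart. Tagged ribosomes were pulled out of a half-brain homogenate by TRAP (translating ribosome affinity purification), which gave the positive fraction, and the unbound RNA was the negative fraction. The 29 libraries fell into 6 groups. From each of 6 Cx3cr1-NuTRAP mice (mice 155, 192, 194, 209, 210 and 277) there were an input, a negative and a positive fraction, and from 5 of them (not mouse 155) also whole tissue, titled Slice. The sources used here do not say which part of the brain that slice held. The 3 Aldh1l1-NuTRAP mice (mice 290, 293 and 294) gave a negative and a positive fraction each.

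Library totals lay between 15486534 and 26857890 counts, apart from both libraries of mouse 290 (8782075 in the negative and 11910720 in the positive fraction) and the whole tissue of mouse 210 (4260795). Both libraries of mouse 290 also lay farthest from the others of their groups across genes (SD of the log2 difference 0.52 and 0.62), as did the positive fraction of mouse 194 (0.50), the negative fraction of mouse 155 (0.42, against at most 0.21 for the other negative fractions of its line) and the whole tissue of mouse 210 (0.41). The libraries of mouse 290 also had 5.96 and 8.88 CPM of 4 Y-linked genes summed, against 108 to 153 CPM in mice 293 and 294. Those of mice 155, 192 and 194 had 0.344 to 1.80 CPM, so mouse 290 lay between, and the cause was not tested. Values without mice 155, 194, 210 and 290 are given where they bear on a result. Levels are given as CPM, counts scaled to a library total of 1000000. Cx3cr1, the gene whose promoter drives Cre in the first line, had 199 to 436 CPM in the positive fraction of that line and 25.0 to 28.9 CPM in its input. In the negative fractions Cx3cr1 had 22.6 to 28.6 CPM in that line and 41.6 to 53.3 CPM in the Aldh1l1-NuTRAP line. The methods of the study give the Cre as +/wt in both lines, and its part in this difference was not tested. Aldh1l1 had 499 to 579 CPM in the positive fraction of its own line and 62.5 to 86.8 CPM in the negative fraction, and the astrocyte gene Gfap had 2210 to 2440 CPM and 226 to 270 CPM.

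Between the Cx3cr1-NuTRAP positive fraction and input, edgeR's quasi-likelihood test called 7 of the 10 genes higher: Trem2, Tyrobp, Inpp5d, Cd68, Cd9, Lpl and Clec7a. None of the 10 was called lower by edgeR, at an adjusted or an unadjusted p under 0.05, or by DESeq2. The background was high, since 23.3% of the 13838 genes tested were called higher and 25.6% lower. More than 5-fold rises were called for 5 of the 10 genes (Trem2, Tyrobp, Inpp5d, Cd68 and Clec7a), against 2.20% of all genes tested. Cst7 and Itgax did not pass the count filter (all libraries of 1 or more of the groups compared above 20 counts) and were not tested, and Clec7a passed it only through the positive fraction. Of the other 7 genes tested, 6 were called higher, and Trem2, Tyrobp, Inpp5d and Cd68 by more than 5-fold. For 8 of the 10 genes, all but Lpl and Spp1, every positive fraction lay above every input. These were 6 of the 8 genes tested, Clec7a among them, with Cst7 and Itgax outside the test, against 10.0% of all genes tested.

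Cells other than microglia also moved with this comparison. The summed level of 12 homeostatic microglia genes was 2623 to 6475 CPM in the positive fractions and 382 to 427 CPM in the inputs, and all 12 rose (median log2 fold change 3.40, against 0.00 for all genes tested). They were led by Fcrls (3.90), Selplg (3.68) and Siglech (3.54), with P2ry12 (3.14) and Sall1 (1.07) at the lower end. Of 8 genes listed for macrophages of the brain's borders, Pf4, Ms4a7, Lyve1 and Cbr2 passed the filter only through the positive fraction, and the other 4 rose, with a median of 2.89. The summed level of all 8 was 157 to 491 CPM against 26.3 to 48.0 CPM in the input, and it was highest in the positive fraction of mouse 194, as was that of the homeostatic list. Values ran from Pf4 (4.30), Ms4a7 (3.23) and F13a1 (3.13) down to Cd163 (2.53) and Cbr2 (2.34). A list of 10 monocyte and neutrophil genes summed to at most 5.13 CPM in the positive fraction, and none of them passed the count filter. The dendritic cell list summed to 32.7 to 49.8 CPM against 30.1 to 37.9 CPM, with Clec10a (2.46) higher, as were Cd209a (2.63) and Batf3 (1.54), which passed the filter only through the positive fraction, Flt3 at 0.15 and Zbtb46 lower (-0.71). The oligodendrocyte list, by contrast, summed to 1370 to 3638 CPM against 4694 to 5404 CPM, with 8 of 9 genes lower. The part of border macrophages in the levels of the 10 genes was not tested. In such bulk libraries, fewer cells of a type and less RNA per cell cannot be told apart.

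**Figure D1:**
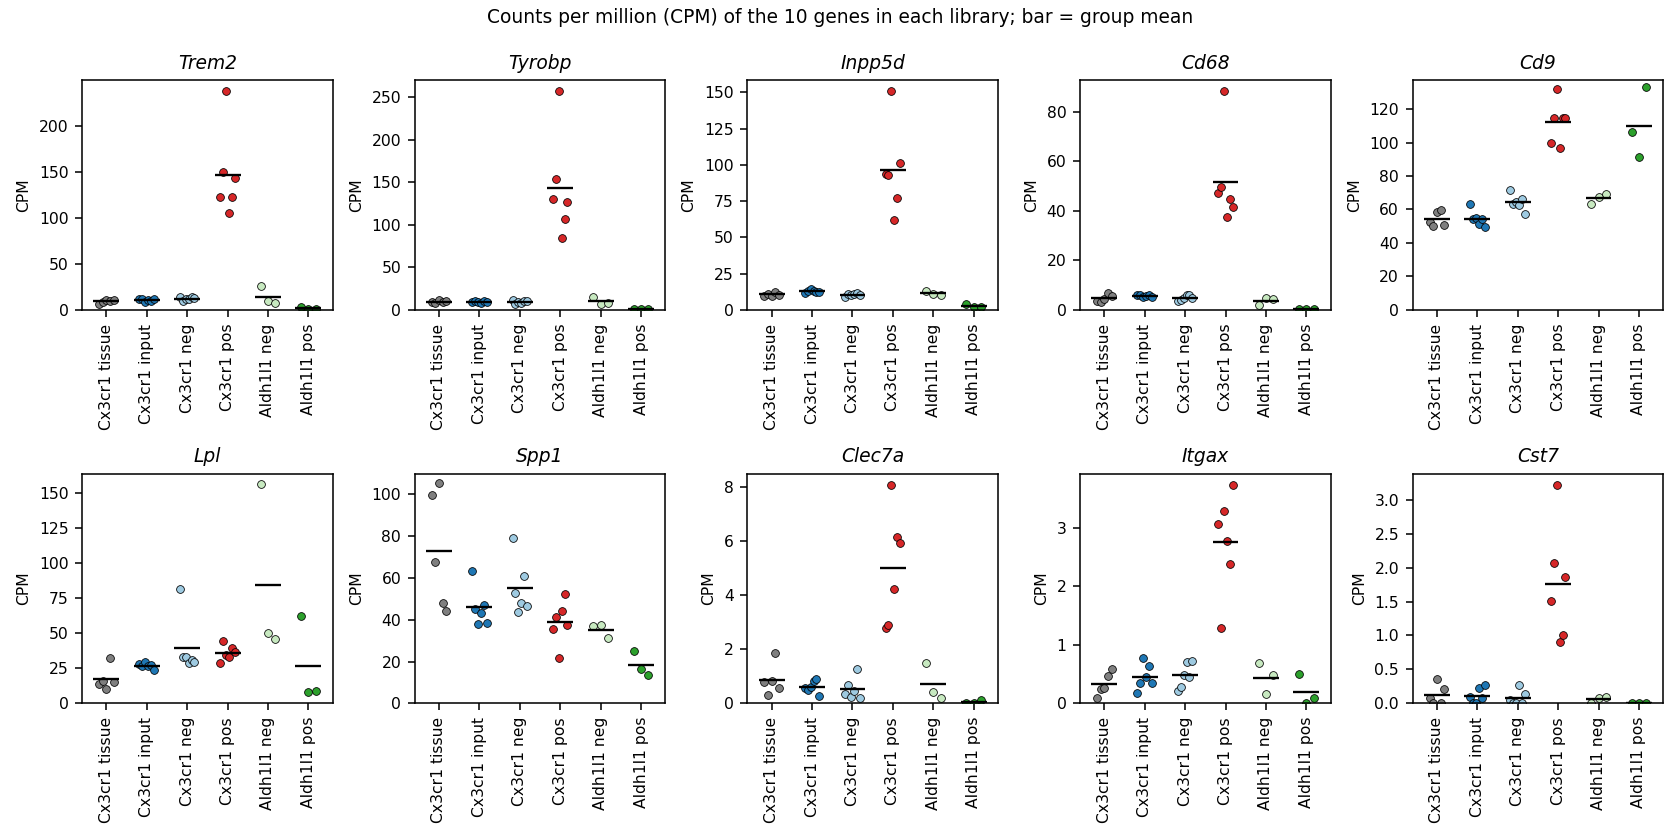
Level of each of the 10 genes in each of the 29 libraries, in CPM (linear axis from 0, its own scale in each panel). Points are libraries and bars group means. The Cx3cr1-NuTRAP positive fractions (red) stand apart for Trem2, Tyrobp, Inpp5d, Cd68, Clec7a, Itgax and Cst7, are level with the Aldh1l1-NuTRAP positive fractions for Cd9, and overlap other groups for Lpl and Spp1.

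Trem2 (Entrez 83433) lies on chromosome 17 of mm10, chr17:48346401-48352276, + strand. It had 105 to 238 CPM in the 6 Cx3cr1-NuTRAP positive fractions (median 133), 8.79 to 12.4 CPM in the inputs (median 11.15) and 9.35 to 13.7 CPM in the negative fractions (median 12.5). The 5 whole tissue libraries had 6.97, 9.19, 9.39, 10.3 and 10.35 CPM. Every positive fraction was above every other library of the line, the highest being that of mouse 194, while the other 3 groups overlapped. The log2 fold change of the positive fraction was 3.76 over input (SE 0.19, adjusted p = 1.56e-08), 3.61 over the negative fraction (SE 0.19, adjusted p = 1.47e-08) and 4.02 over whole tissue (SE 0.23, adjusted p = 1.93e-07). Without mouse 194 the first of these was 3.51. In the astrocyte line Trem2 had 26.5, 9.75 and 7.47 CPM in the negative fractions of mice 290, 293 and 294, and 3.61, 1.05 and 1.345 CPM in their positive fractions. It was lower in the positive fraction in 3 of 3 mice, by 2.56 on the log2 scale (SE 0.67, adjusted p = 0.0147), and the ranges did not overlap. The call was lost without mouse 293, with a log2 fold change of -2.44 and an adjusted p of 0.0623, and held without mouse 290, whose libraries stand apart (-2.56, adjusted p = 2.29e-05).

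Tyrobp (Entrez 22177, chr7:30413788-30417579, + strand) was likewise highest in these positive fractions. Its level was 84.4 to 257 CPM in the Cx3cr1-NuTRAP positive fractions (median 128), 8.27 to 10.6 CPM in the inputs (median 9.53), 7.06 to 11.6 CPM in the negative fractions (median 9.97) and 8.23, 8.95, 9.39, 10.7 and 11.8 CPM in whole tissue. Mouse 194 was again the highest, and no other library of the line reached the lowest positive fraction. The log2 fold change was 3.92 over input (SE 0.25, adjusted p = 7.72e-08), 3.65 without mouse 194. Over the negative fraction it was 3.96 (SE 0.25), and over whole tissue 3.90 (SE 0.28). In astrocyte ribosomes Tyrobp was near the lower end of detection, at 1.26, 1.05 and 0.717 CPM in the positive fractions of mice 290, 293 and 294 (15, 22 and 16 counts). The negative fractions of the same mice had 14.8, 7.52 and 8.71 CPM, all above the positive ones, with a log2 fold change of -3.03 (SE 0.39, adjusted p = 0.000726), or -2.92 without mouse 290. Tyrobp passed the count filter there only through the negative fraction.

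The ratio of positive fraction to input of these and the next genes moved together from mouse to mouse. On the TMM scale, across the 6 mice, the log2 ratio of Trem2 was 3.75 ± 0.57 and that of Tyrobp 3.86 ± 0.55 (mean ± SD), and the median ratio of the 12 homeostatic genes ranged from 2.89 in mouse 209 to 4.29 in mouse 194. It was 3.47 to 4.29 in mice 155, 192 and 194, whose input libraries had 0.537 to 0.718 CPM of 4 Y-linked genes summed, and 2.89 to 3.13 in mice 209, 210 and 277, which had 159 to 168 CPM. The labels give no sex by mouse, and its part was not tested. Taken within each mouse against that median, Trem2 was 0.36 ± 0.25 above it, and above in all mice but 1, a distance that was 0.13 with the negative fraction in place of input. Tyrobp was 0.47 ± 0.12 above it in 6 of 6 mice. Per 1000 CPM of the summed homeostatic genes, Trem2 had 37.6 ± 2.64 CPM in the positive fractions (33.6 to 40.0), so that the library of mouse 194 no longer stood apart. The inputs had 27.1 ± 2.70 CPM on that scale (SD, n = 6), below every positive fraction. The negative fractions of the same mice, at 32.2 ± 3.38 CPM (25.4 to 34.6), overlapped the positive ones.

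**Figure D2:**
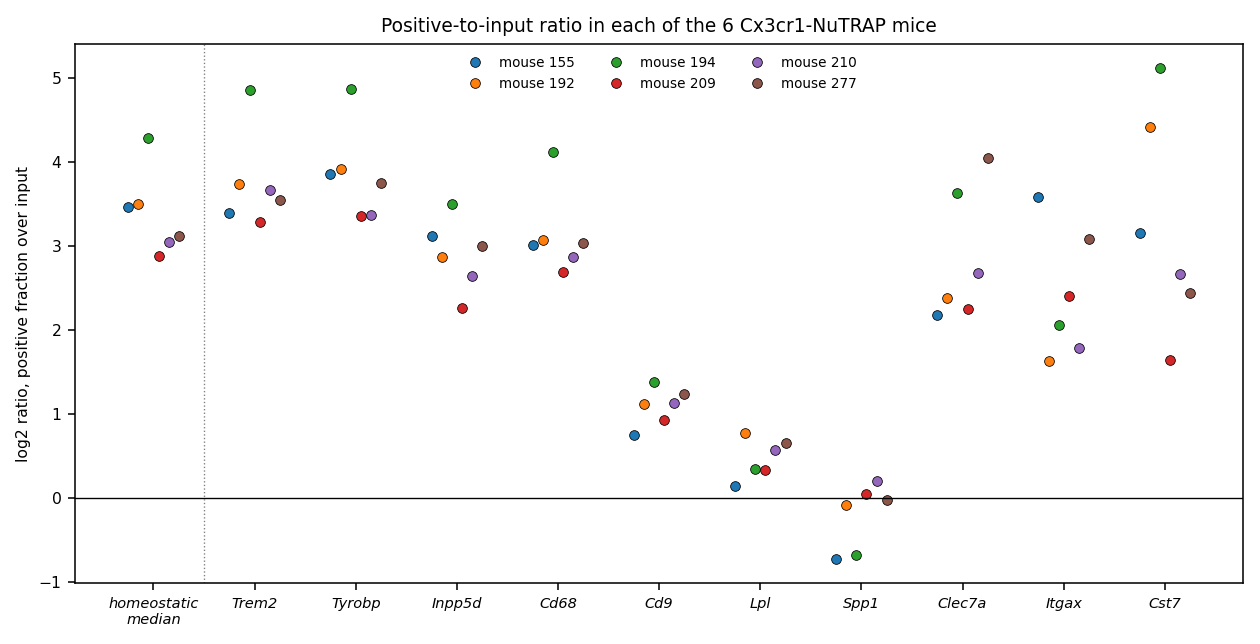
Log2 ratio of the positive fraction to the input of the same mouse on the TMM scale (vertical axis) for the median of the 12 homeostatic microglia genes and for each of the 10 genes. Each point is 1 of the 6 Cx3cr1-NuTRAP mice. Mouse 194 is the highest for the homeostatic median (4.29), Trem2 (4.86) and Tyrobp (4.87), whereas Inpp5d, Cd68, Cd9, Lpl and Spp1 lie below the homeostatic median of the same mouse in every mouse.

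Inpp5d (Entrez 16331, chr1:87620312-87720508, + strand) had 62.1 to 151 CPM in the Cx3cr1-NuTRAP positive fractions (median 93.5), 11.5 to 14.4 CPM in the inputs (median 12.8) and 9.18 to 11.9 CPM in the negative fractions (median 10.7). In whole tissue the values were 9.86, 9.91, 10.2, 11.15 and 12.4 CPM. The positive fractions were again clear of all the others, and mouse 194 was the highest. Over input the log2 fold change was 2.92 (SE 0.18, adjusted p = 4.36e-08), over the negative fraction 3.21 (SE 0.19) and over whole tissue 3.21 (SE 0.21). Against the homeostatic median of the same mouse it was lower in 6 of 6 mice, by 0.48 ± 0.24 (mean ± SD). In the unbound RNA Inpp5d was lower than in the input in 6 of 6 mice, with a log2 fold change of -0.27 (SE 0.08) and an adjusted p of 0.0524 that became 0.0135 with the mouse as a replicate block. The Aldh1l1-NuTRAP line had 3.78, 2.29 and 1.88 CPM in the positive and 12.98, 11.1 and 10.7 CPM in the negative fractions of mice 290, 293 and 294. The groups did not overlap, and the log2 fold change was -1.80 (SE 0.32, adjusted p = 0.00276), and -2.10 without mouse 290.

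Cd68 (Entrez 12514, chr11:69664371-69666062, - strand) encodes a glycoprotein of the lysosome and endosome of phagocytes. It had 37.5 to 88.4 CPM in the positive fractions (median 46.0), 5.05 to 6.24 CPM in the inputs (median 5.86), 3.55 to 6.02 CPM in the negative fractions (median 4.68) and 3.32, 3.53, 4.27, 5.58 and 7.04 CPM in whole tissue. The positive fraction of mouse 194 was far above the next one, at 49.7 CPM, and even without it all the others exceeded the remaining libraries. Log2 fold changes were 3.18 over input (SE 0.20, adjusted p = 4.09e-08, 2.93 without mouse 194), 3.46 over the negative fraction (SE 0.22) and 3.56 over whole tissue (SE 0.27). Cd68 did not pass the count filter in the Aldh1l1-NuTRAP line, with 5, 11 and 11 counts (0.420, 0.524 and 0.493 CPM) in the positive and 17, 122 and 94 counts in the negative fractions of mice 290, 293 and 294. All 3 positive fractions lay below the negative ones, and the ratio of the pooled counts, in CPM, was 0.115 (exact 95% interval 0.0744 to 0.172, which covers counting error only).

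Windows of 250 bases before a transcript start of these genes were read from RefSeq (GRCm38.p6). They show where the strongly enriched and the unenriched genes hold or lack the exact purine-rich letters GAGGAAGT, a form of the site bound by the myeloid factor PU.1. Entries existed for 8 of the 10 genes, not for Tyrobp and Lpl, and that of Itgax starts within the gene as RefSeq bounds it. The letters, searched on both strands, occurred in 2 of the 8, Inpp5d and Spp1, and in 2.44% of the 32851 windows of that length before all genes. The shorter string GGAAGT, which lies inside the first, occurred in the windows of 4 genes (also Cst7 and Itgax) and in 19.7% of all windows. TGAGTCA, a form of the site bound by AP-1, occurred in those of Cd68 and Itgax and in 4.46% of all. The windows of Trem2 (chr17:48346151-48346400, + strand), Inpp5d (chr1:87620062-87620311, + strand) and Spp1 (chr5:104434861-104435110, + strand) are printed 5′ to 3′, with GAGGAAGT in capitals:
Trem2: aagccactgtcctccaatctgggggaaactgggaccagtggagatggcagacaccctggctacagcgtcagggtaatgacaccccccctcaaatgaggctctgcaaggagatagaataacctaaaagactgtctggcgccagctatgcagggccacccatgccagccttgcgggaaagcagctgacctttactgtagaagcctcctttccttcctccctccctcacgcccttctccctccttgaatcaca
Inpp5d: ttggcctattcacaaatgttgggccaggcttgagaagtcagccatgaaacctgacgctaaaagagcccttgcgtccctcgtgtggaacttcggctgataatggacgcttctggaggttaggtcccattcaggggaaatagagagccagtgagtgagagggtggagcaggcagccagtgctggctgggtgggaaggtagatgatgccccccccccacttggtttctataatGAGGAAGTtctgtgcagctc
Spp1: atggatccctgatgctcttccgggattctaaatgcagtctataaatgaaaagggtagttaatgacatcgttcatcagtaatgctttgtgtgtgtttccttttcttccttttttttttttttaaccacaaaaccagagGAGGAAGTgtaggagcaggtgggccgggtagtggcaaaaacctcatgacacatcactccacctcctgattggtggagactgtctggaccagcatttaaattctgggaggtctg
In the Inpp5d window the match ends 12 bases before the start, and in that of Spp1 105 bases before it. The Trem2 window holds none of the 3 exact strings. Forms of these sites with other letters were not searched, so a window without a string may still hold such a form. A match is a description of the letters only.

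Cd9 (Entrez 12527, chr6:125460266-125494755, - strand) encodes a tetraspanin of the cell membrane that astrocytes, oligodendrocytes and microglia use. The gene overlaps the antisense models Gm28809 and Gm26728 on the opposite strand. It had 96.6 to 132 CPM in the Cx3cr1-NuTRAP positive fractions (median 115), 49.4 to 63.5 CPM in the inputs (median 54.2), 57.1 to 71.5 CPM in the negative fractions (median 64.0) and 49.9, 50.65, 52.5, 58.4 and 59.85 CPM in whole tissue. The positive fractions did not overlap the rest, but the gap was far smaller than for Trem2. Log2 fold changes were 1.06 over input (SE 0.08, adjusted p = 2.47e-07), 0.83 over the negative fraction (SE 0.09, adjusted p = 4.87e-06) and 1.08 over whole tissue (SE 0.10, adjusted p = 2.47e-06). Against the homeostatic median of the same mouse the ratio was lower in 6 of 6 mice, by 2.29 ± 0.44 (mean ± SD), or 4.90-fold.

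Cd9 was the only one of the 10 called higher in the positive fraction of both lines. The Aldh1l1-NuTRAP positive fractions had 106, 91.4 and 133 CPM and the negative fractions 63.5, 67.5 and 69.5 CPM in mice 290, 293 and 294. All 3 positive fractions lay above the negative ones, with a log2 fold change of 1.07 (SE 0.17, adjusted p = 0.00185). The positive fractions of the lines overlapped in Cd9 (log2 fold change of Cx3cr1-NuTRAP over Aldh1l1-NuTRAP -0.28, SE 0.14, adjusted p = 0.106), and the sign turned to 0.03 with library totals in place of TMM factors. Between the negative fraction and the input of the Cx3cr1-NuTRAP line, Cd9 was higher in 6 of 6 mice. Its log2 fold change was 0.24 (SE 0.07) with an adjusted p of 0.0520, and of 0.000471 with the mouse as a replicate block.

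Lpl (Entrez 16956, chr8:68880555-68906932, + strand) encodes lipoprotein lipase, which neurons and glia of the healthy brain also make. It had 28.55 to 44.7 CPM in the Cx3cr1-NuTRAP positive fractions (median 35.5), 23.7 to 29.2 CPM in the inputs (median 27.2), 28.7 to 81.1 CPM in the negative fractions (median 31.8) and 10.35, 13.6, 15.1, 16.2 and 32.6 CPM in whole tissue. These groups overlapped, and 1 library of each of the last 2 stood far above its group, the negative fraction of mouse 155 and the whole tissue of mouse 210. Over input the log2 fold change was 0.44 (SE 0.09, adjusted p = 0.00175), higher in 6 of 6 mice, but it was no longer called when all 6 groups shared 1 fit (0.47, adjusted p = 0.328). Over whole tissue it was 1.12 (SE 0.23, adjusted p = 0.00148), and 1.31 without mouse 210. Over the negative fraction Lpl was not called (-0.10, SE 0.24, adjusted p = 0.807). The sign turned with the mouse as a replicate block (0.02, adjusted p = 0.966), and without mouse 155 Lpl was called higher (0.30, adjusted p = 0.0229).

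For the Aldh1l1-NuTRAP line Lpl set mouse 290 apart, with 156 CPM in the negative and 62.4 CPM in the positive fraction. Mice 293 and 294 had 50.4 and 45.5 CPM in the negative and 8.43 and 8.88 CPM in the positive fraction. Each mouse had less in the positive fraction, yet the groups overlapped through mouse 290. The log2 fold change was -1.32 (SE 0.88, adjusted p = 0.244) as 2 groups, -1.71 with the mouse as a replicate block (adjusted p = 9.05e-05) and -2.19 without mouse 290 (adjusted p = 1.81e-07). The positive fractions of the lines did not differ at the threshold in Lpl (0.12, SE 0.54, adjusted p = 0.851), and without mouse 290 the Cx3cr1-NuTRAP line was higher by 1.76 (adjusted p = 1.79e-05).

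Spp1 (Entrez 20750, chr5:104435111-104441053, + strand) encodes osteopontin, a secreted phosphoprotein that some neurons and border macrophages make in the healthy brain. A gene model without a settled type, Gm42793, overlaps it on the same strand. Spp1 had 21.9 to 52.2 CPM in the Cx3cr1-NuTRAP positive fractions (median 39.3), 38.0 to 63.2 CPM in the inputs (median 44.2), 43.8 to 79.25 CPM in the negative fractions (median 50.5) and 44.1, 47.9, 67.4, 99.7 and 105 CPM in whole tissue. Within this line it was the only one of the 10 with its highest median outside the positive fractions, and all 4 groups overlapped. Over input the log2 fold change was -0.23 (SE 0.17, adjusted p = 0.273), with 2 of 6 mice higher in the positive fraction. Over the negative fraction it was -0.49 (SE 0.18, adjusted p = 0.0634), lower in 6 of 6 mice, and with the mouse as a replicate block the adjusted p was 0.0448. Over whole tissue Spp1 fell by 0.90 on the log2 scale (SE 0.24, adjusted p = 0.00776), a call lost without mouse 192 (-0.77, adjusted p = 0.0538). The positive fraction of mouse 194, the highest for Trem2, was the lowest for Spp1 (21.9 CPM), and its summed oligodendrocyte markers were also the lowest (1370 CPM), although the part of such cells in Spp1 was not tested.

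The Aldh1l1-NuTRAP positive fractions had 25.1, 16.4 and 13.6 CPM of Spp1 and the negative fractions 37.1, 37.4 and 31.4 CPM in mice 290, 293 and 294. The ranges did not overlap, but on the TMM scale the log2 fold change was -0.60 (SE 0.26, adjusted p = 0.0896). It was called lower with the mouse as a replicate block (-0.65, adjusted p = 0.00324), without mouse 290 (-0.92, adjusted p = 0.000315) and with library totals in place of TMM factors (-0.95, adjusted p = 0.0141). The Cx3cr1-NuTRAP positive fraction was above the Aldh1l1-NuTRAP one by 0.76 (SE 0.26, adjusted p = 0.0260). The call did not hold without mouse 210 (0.57, adjusted p = 0.0800), mouse 293 (0.68, adjusted p = 0.0867) or mouse 294 (0.57, adjusted p = 0.116). All 10 neuron markers (median 1.5) and 8 of 9 oligodendrocyte markers (median 1.46) were higher in the same comparison, and their part in Spp1 was not tested.

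Clec7a (Entrez 56644, chr6:129461591-129472777, - strand) encodes dectin-1, a C-type lectin receptor for fungal glucans that also signals through SYK. Its counts were low everywhere. The Cx3cr1-NuTRAP positive fractions had 2.78 to 8.08 CPM (median 5.08, 45 to 148 counts), the inputs 0.266 to 0.907 CPM (median 0.595), the negative fractions 0.180 to 1.28 CPM (median 0.384) and whole tissue 0.320, 0.579, 0.775, 0.837 and 1.88 CPM. Every positive fraction was above every other library. The log2 fold change was 3.02 over input (SE 0.32, adjusted p = 4.99e-06), 3.26 over the negative fraction (SE 0.41) and 2.80 over whole tissue (SE 0.41). In the Aldh1l1-NuTRAP positive fractions Clec7a had 0, 0 and 3 counts, all at or under the floor of 3 counts set here for a detected level. The negative fractions of mice 290, 293 and 294 had 13, 11 and 4 counts. From the pooled counts, the Cx3cr1-NuTRAP positive fraction was 93.2 times the Aldh1l1-NuTRAP one in CPM, with an exact 95% interval of 31.7 to 453 that covers counting error only.

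Itgax (Entrez 16411, chr7:128129568-128150657, + strand) encodes the integrin alpha X chain CD11c, also a marker of dendritic cells. It had 20 to 60 counts in the Cx3cr1-NuTRAP positive fractions (1.29 to 3.735 CPM, median 2.92), 4 to 17 counts in the inputs (0.179 to 0.774 CPM), 4 to 16 in the negative fractions and 2 to 11 in whole tissue. The positive fraction of mouse 192, with 20 counts, was the lowest and kept the gene from passing the filter, although it still exceeded all inputs. Pooled over the libraries, the positive fraction was 6.10 times the input in CPM (exact 95% counting interval 4.63 to 8.14). The within-mouse log2 ratio was 2.43 ± 0.77 (mean ± SD, higher in 6 of 6 mice).

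Cst7 (Entrez 13011, chr2:150570415-150578944, + strand), the gene of cystatin F, an inhibitor of lysosomal cysteine proteases, was the least abundant of the 10 in CPM. It had 18 to 59 counts in the Cx3cr1-NuTRAP positive fractions (0.908 to 3.22 CPM, median 1.69). The inputs had 0 to 6 counts, and 4 of the 6 were at or under 3 counts, as were 5 of 6 negative fractions and 3 of 5 whole tissue libraries. All positive fractions lay above all other libraries. From 184 pooled counts against 16, the positive fraction was 15.1 times the input in CPM (exact 95% counting interval 9.04 to 26.9). No count was found in the 3 Aldh1l1-NuTRAP positive fractions, and against a floor of 3 counts over that group the Cx3cr1-NuTRAP positive fraction was at least 32-fold higher. With genes of 1 or more counts tested, edgeR called both Itgax (log2 fold change 2.60, adjusted p = 7.69e-06) and Cst7 (3.90, adjusted p = 2.36e-05) higher over input.

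**Figure D3:**
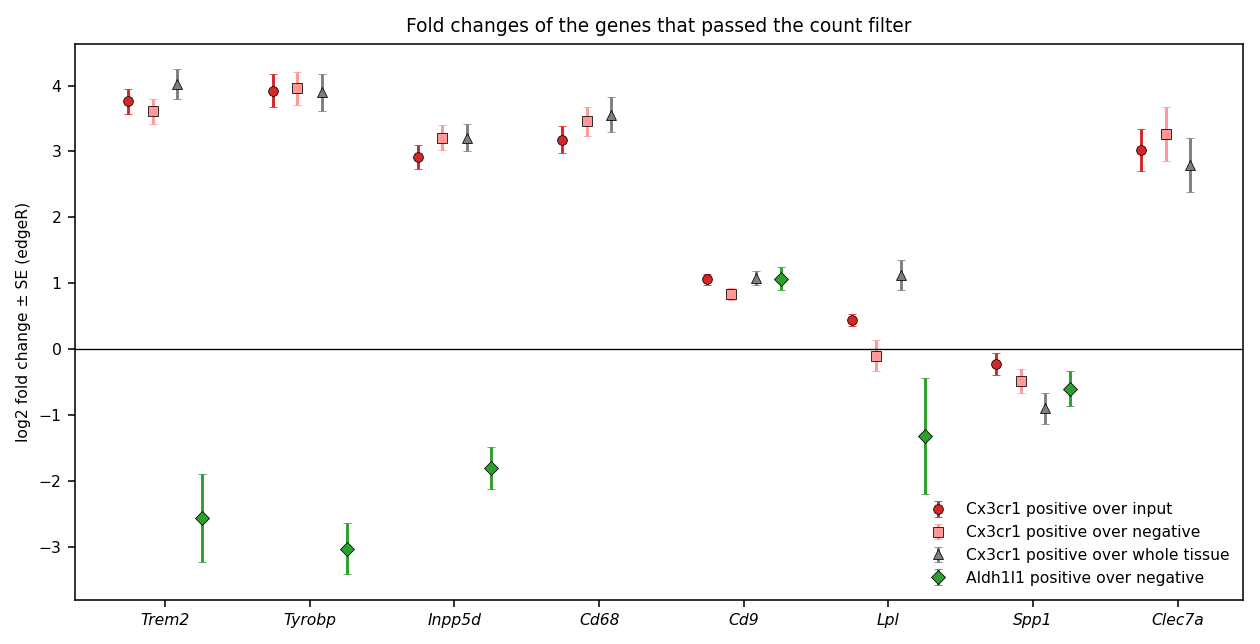
Log2 fold change with its standard error (vertical axis, edgeR) of the 8 genes that passed the count filter in the Cx3cr1-NuTRAP positive fraction over input, negative fraction and whole tissue, and in the Aldh1l1-NuTRAP positive over negative fraction. Cd68 and Clec7a have no Aldh1l1-NuTRAP value because they did not pass the filter there. Trem2, Tyrobp and Inpp5d have opposite signs in the lines, Cd9 lies between 0.83 and 1.08 in each of the 4 comparisons, and Spp1 lies below 0 in each of the 4 comparisons.

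Divided by the length of the spliced RNA (CPM per kilobase, with the mean length of the transcripts tied to a RefSeq mRNA), the 10 genes ran from Tyrobp at 254 ± 107 to Itgax at 0.681 ± 0.210 in the Cx3cr1-NuTRAP positive fraction (mean ± SD, n = 6). Tyrobp ranked 199th of 19404 genes with a length and Trem2, at 137 ± 44.2, ranked 505th. Cd9 (91.3 ± 10.4) ranked 843rd, Cd68 (41.9 ± 15.1) 2083rd, Spp1 (26.8 ± 6.99) 3271st and Inpp5d (21.1 ± 6.63) 4046th. Differences smaller than the sum of the SDs separated Tyrobp from Trem2, Trem2 from Cd9, Cd68 from Spp1 and Spp1 from Inpp5d. Lower still were Lpl (8.75 ± 1.35, rank 7401), Clec7a (3.36 ± 1.39, rank 10389), Cst7 (1.79 ± 0.861, rank 11589) and Itgax (rank 13084), of which Clec7a and Cst7 also differed by less than the sum of their SDs. In the input the order was another one, with Cd9 (44.45 ± 3.97) and Spp1 (31.7 ± 6.39) in front of Tyrobp (17.1 ± 1.47) and Trem2 (10.2 ± 1.34). By CPM without length, 3 of the 10 genes kept their place in the positive fraction, and with the union of all annotated exons as length 7 did, Trem2 then being 4th.

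The other genes were set against the homeostatic median in the same way. Within mice, the positive-to-input log2 ratio less the homeostatic median was -0.25 ± 0.15 for Cd68 (below in 6 of 6 mice), and that of Clec7a, Itgax and Cst7 scattered widely (-0.52 ± 0.79, -0.96 ± 0.98 and -0.15 ± 0.86). The Cd68 value moved to -0.08 with the mean of the homeostatic list and to -0.03 with the negative fraction in place of input. For Lpl it was -2.92 ± 0.59 and for Spp1 -3.60 ± 0.84, each lower in 6 of 6 mice. Cd9, at -2.29 ± 0.44, was next to Lpl, and neighbours in the order Cd9, Lpl, Spp1 differed by less than the sum of their SDs.

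The other comparisons gave the following counts, in which Clec7a passed the filter only through the Cx3cr1-NuTRAP positive fraction. Over the negative fraction of the Cx3cr1-NuTRAP line, 6 of the 10 genes were called higher (12.8% of 13776 genes tested) and 0 lower by edgeR (11.6%), with 1 (Spp1) lower at an unadjusted p under 0.05 and in DESeq2. The ranges did not overlap, higher in the positive fraction, for 6 of the 8 genes tested, against 7.24% of all genes tested, and for Cst7 and Itgax, which were not tested. Over whole tissue 7 were higher (27.5% of 13470) and 1, Spp1, lower (24.3%), and the ranges did not overlap, higher in the positive fraction, for the same 6 tested genes (12.7% of all genes tested), Cst7 and Itgax. Between negative fraction and input, edgeR called 0 higher (1.41% of 13748) and 0 lower (4.70%). At an unadjusted p under 0.05 there were 2 higher and 1 lower, and DESeq2 called 1 higher and 1 lower. With the mouse as a replicate block Cd9 and Spp1 were called higher (Spp1 0.27, adjusted p = 0.000658) and Inpp5d lower, while calls over all genes rose from 194 to 2431 higher and from 646 to 2684 lower. Without mouse 155 these 3 genes and Lpl were called (Cd9 0.25, Lpl 0.21 and Spp1 0.25 higher, Inpp5d -0.26). Trem2 (0.17, adjusted p = 0.289) and Tyrobp (-0.02, adjusted p = 0.925) were not called under either.

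Between input and whole tissue, Inpp5d (0.28, SE 0.09, adjusted p = 0.0343) and Lpl (0.72, SE 0.20, adjusted p = 0.0171) were called higher (16.3% of 13608 genes) and Spp1 lower (-0.69, SE 0.23, adjusted p = 0.0381, 14.2% of genes). None of the 3 calls held in every subset of mice. Inpp5d and Lpl were lost without mouse 192, 194, 209 or 277, and Spp1 without 192, 194 or 209. With the mouse as a replicate block, Inpp5d was not called (0.31, adjusted p = 0.0609). Trem2, Tyrobp, Cd68 and Cd9 lay between -0.04 and 0.36 and were not called. Markers of other cells moved in the same comparison. All 8 endothelial genes were lower in the input (median -1.34), as were 8 of 9 oligodendrocyte and 4 of 5 pericyte genes, while 5 of 10 neuron genes were higher and 3 lower. Their part in the values of Inpp5d, Lpl and Spp1 was not tested.

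Among astrocyte ribosomes, Trem2 and Inpp5d were called lower in the positive than in the negative fraction, where 24.8% of 13319 genes were lower, as was Tyrobp, which passed the count filter only through the negative fraction, and 1 (Cd9) was higher, with 26.8% of genes. With the mouse as a replicate block Lpl and Spp1 were also lower, while the genes called lower over all 13319 rose from 3299 to 4503. Scaling mattered in this line. Library totals in place of TMM factors moved the median log2 fold change of all genes from 0.04 to -0.31 and the share of calls that were higher from 52.0% to 33.6%. Ranges in CPM carry that shift: in 41.6% of all genes tested every positive fraction was below every negative one, and Trem2, Tyrobp, Inpp5d and Spp1 were among them, with Cd68 and Clec7a below as well but not tested. The opposite held for 1 of the 10, Cd9, and 21.4% of all genes. On library totals, 4 genes were called lower (Trem2, Tyrobp, Inpp5d and Spp1) and Cd9 higher, with 4824 lower and 2436 higher over all 13319 genes. The 12 homeostatic genes summed to 100 to 154 CPM in these positive and 352 to 513 CPM in the negative fractions, and 7 of the 8 that did not pass the filter through the negative fraction alone fell.

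Between the positive fractions of the lines, the Cx3cr1-NuTRAP one was called higher in 6 of the 10 genes (33.1% of 13676 genes tested). Of these, Tyrobp, Cd68 and Clec7a passed the count filter only through the Cx3cr1-NuTRAP side, where they are high, so that Trem2, Inpp5d and Spp1 are the 3 called among the other 5. The log2 fold change was 6.89 for Tyrobp (SE 0.48, adjusted p = 5.35e-07), 6.41 for Cd68 (SE 0.41), 5.98 for Trem2 (SE 0.48) and 4.92 for Inpp5d (SE 0.38). Ranges in CPM did not overlap for 5 of the 8 genes tested (Trem2, Tyrobp, Inpp5d, Cd68 and Clec7a), against 42.0% of all genes tested, nor for Cst7 and Itgax, which were not tested. EdgeR called 0 of the 10 lower (30.6%), also at an unadjusted p under 0.05, and DESeq2 called 1, Cd9. With library totals in place of TMM factors the median of all genes moved from 0.08 to 0.39 and the share of calls that were higher from 52.0% to 68.7%, while Trem2, Tyrobp, Inpp5d and Cd68 stayed higher. The difference between the lines in the positive-to-negative ratio, tested as an interaction, was called for Trem2, Tyrobp, Inpp5d, Cd68 and Clec7a, with log2 differences of 5.07 to 7.03. Of these, Clec7a passed the count filter only through the Cx3cr1-NuTRAP positive fraction. In that direction 29.9% of 13983 genes tested were called, and 25.5% in the other, which held 0 of the 10 by edgeR, at an unadjusted p under 0.05 or by DESeq2. Library totals moved the median of all genes from 0.11 to 0.39 and the share of higher calls from 53.9% to 68.7%. It was not called for Cd9 (-0.19, SE 0.17, adjusted p = 0.344) or Spp1 (0.15, SE 0.33, adjusted p = 0.716). For Lpl it was 1.26 (SE 0.77, adjusted p = 0.170), and with the mouse as a replicate block 1.79 (adjusted p = 0.00329).

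Around the receptor, 29 further genes of the pathway were listed by role, and 24 passed the filter in the Cx3cr1-NuTRAP positive fraction against input. Treml2 and Btk passed it only through the positive fraction. Of the other 22 genes 16 rose and 4 fell, with a median log2 fold change of 0.84 against 0.00 for all genes, of which 23.3% rose and 25.6% fell. The kinases Syk (2.56) and Lyn (2.31), which read or phosphorylate the adaptor, rose, and Btk, a kinase further on, was at 3.75. So did the proteins they act on, Vav1 (3.51), a guanine exchange factor, Lcp2 (2.89), the scaffold SLP-76, and Plcg2 (2.55), a phospholipase C. Card9 (2.91), an adaptor downstream of SYK, rose with them. Of its partners Bcl10 rose by less (0.49, adjusted p = 0.00121) and Malt1 was not called (0.38, adjusted p = 0.134).

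Among the inhibitors Ptpn6 (3.68), the phosphatase SHP-1, Cd33 (2.65), a sialic acid receptor, Dok1 (2.43) and Dok3 (2.00) all rose. The forms of a signal molecule differed by gene: Vav1 was at 3.51, Vav2 at 0.37 (adjusted p = 0.0536) and Vav3 at -0.36 (adjusted p = 0.0120), and among subunits of the phosphoinositide kinase Pik3cd was at 0.96 and Pik3r1 at -0.25. Sheddases can cut the receptor from the surface, and of these Adam17 rose (0.73) and Adam10 fell (-0.34). The lipoprotein ligands were Apoe (0.40, adjusted p = 0.000582) and Clu (-0.30, adjusted p = 0.0480), both also products of astrocytes. Of the other receptors of the family, Treml2 was at 2.92, while Trem1, Trem3, Treml1 and Treml4 were at 0.0304 to 0.215 CPM on average in the positive fraction and did not pass the filter. Nor did Hcst (1.42 ± 0.262 CPM), the gene of DAP10, a second adaptor.

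**Figure D4:**
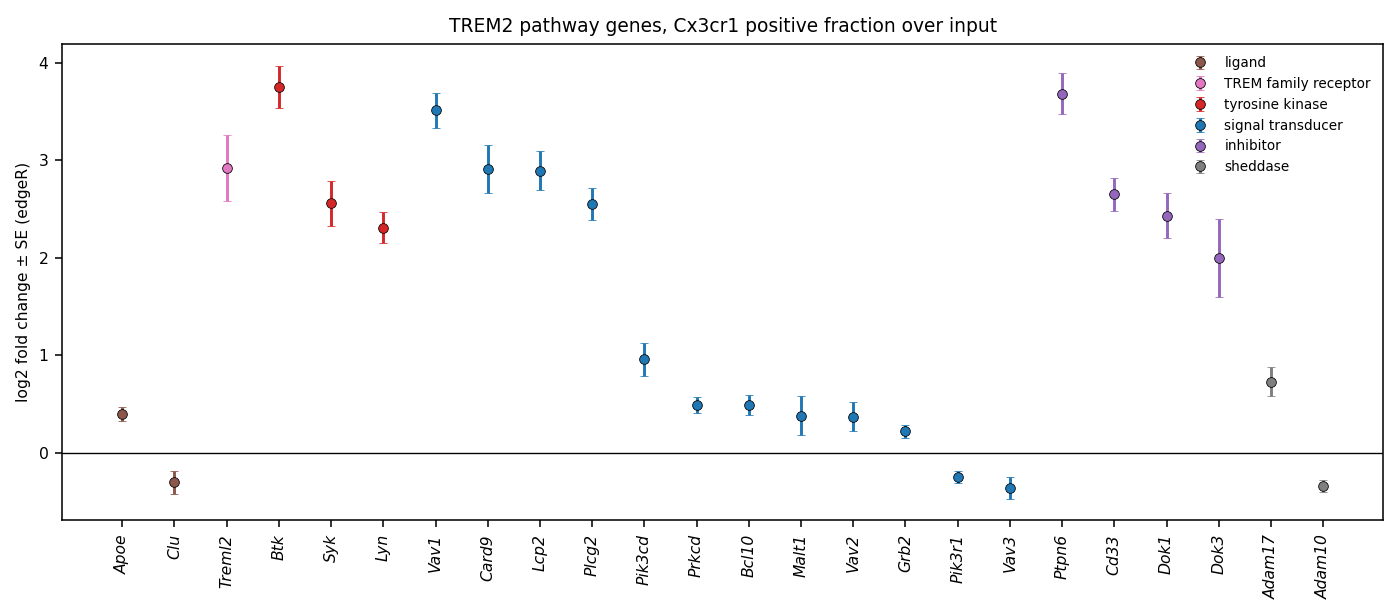
Log2 fold change with its standard error (vertical axis, edgeR) of the 24 tested genes of the TREM2 pathway in the Cx3cr1-NuTRAP positive fraction over input, grouped and coloured by role. Kinases and inhibitors all lie at 2.00 or above, whereas signal transducers run from -0.36 (Vav3) to 3.51 (Vav1) and ligands and sheddases lie between -0.34 (Adam10) and 0.73 (Adam17).

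In astrocyte ribosomes the pathway genes moved both ways. Of 21 genes tested in the positive against the negative fraction of the Aldh1l1-NuTRAP line, 8 rose and 7 fell, against 26.8% and 24.8% of all genes. Without the 6 genes that passed the filter only through the fraction where they are high (Plcg2, Vav1, Card9, Ptpn6, Cd33 and Dok1), 7 rose and 3 fell of 15, with a median of 0.58 against 0.04 for all genes. Those that rose included both ligands, Clu (2.88, SE 0.25) and Apoe (2.86, SE 0.36), with Bcl10 (1.76) and Lyn (1.52). The values of Vav1 (-2.45), Ptpn6 (-2.04), Cd33 (-1.82) and Card9 (-1.72) were the lowest.

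Other genes raised in disease-associated microglia did not share 1 pattern. Of 7 genes of the first, Trem2-independent stage, 6 rose and 1 fell in the Cx3cr1-NuTRAP positive fraction over input, with a median of 0.47 (of all genes 23.3% rose and 25.6% fell, with a median of 0.00). Lyz2 (3.64), B2m (2.10) and Ctsd (2.05), which encode lysozyme, the light chain of MHC class I and cathepsin D, led, and Timp2 (0.22) and Fth1 (-0.46), a protease inhibitor and the ferritin heavy chain, were lowest. Of the second stage, Cd52 and Cybb passed the filter only through the positive fraction, and among the other 16 tested genes 8 rose and 6 fell, with a median of 0.23. Cd52 (3.95), Ccl6 (3.28) and Cybb (2.51) were highest, and Gpnmb (-0.57, adjusted p = 0.0122) and Ank (-0.59) lowest. Among the Aldh1l1-NuTRAP fractions, 12 of 15 tested genes of this second list were higher in the positive fraction and 1 lower (median 1.34, with 26.8% and 24.8% of all genes), leaving out Lgals3, which passed the filter only through that fraction. Gpnmb, for one, rose there by 1.71 (SE 0.32, adjusted p = 0.00356).

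Over all 29 libraries the genes whose log2 CPM was most like that of Trem2 among 14108 genes were the complement genes C1qa (Pearson's r = 0.989), C1qb (0.986) and C1qc (0.986), with AF251705 (0.987) and Fcrls (0.985). These libraries share mice and the high positive fractions, so the values describe the pattern only. C1qa had 414 to 981 CPM in the Cx3cr1-NuTRAP positive fractions, 36.8 to 47.8 CPM in the inputs and 3.67 to 10.6 CPM in the Aldh1l1-NuTRAP positive fractions. Of the 10 genes, Tyrobp ranked 9th by this measure (0.982), Inpp5d 15th (0.979), Cd68 145th (0.934) and Clec7a 261st (0.878). Lpl (0.365), Cd9 (0.295) and Spp1 (0.024) were far from it. In the 23 Cx3cr1-NuTRAP libraries alone the value was 0.963 for Cd9 and -0.492 for Spp1. The 5 leading genes depended on the measure, since Spearman's rho shared 1 of them and the 23 libraries shared 0.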

How the data were processed

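Expected counts per gene and library were used as deposited, not normalized. Per the methods of the study, the authors aligned directional paired-end poly(A) reads to mm10 with Strand NGS, and per the file headers genes were those of RefSeq. Of the nonzero values 82.4% are not whole, and all were rounded before testing. The authors' log2 values, made by DESeq normalization, were deposited beside them and were not used. All 29 libraries were assigned to group and mouse by column title.

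Genes above 20 counts in all libraries of 1 or more of the groups compared were tested in edgeR 4.0.16 (R 4.3.3), with TMM factors, the robust quasi-likelihood test (two-sided) and Benjamini-Hochberg adjustment over all genes tested, at a threshold of 0.05. DESeq2 1.42.0 was an alternative, with other filters, scalings and samples. The fits were checked on simulated counts. SE is the log2 fold change over the root of F. Within-mouse ratios and the likeness to Trem2 used edgeR's log2 CPM with TMM factors over all 29 libraries and a prior count of 2, so that they differ from ratios of the CPM printed, which are scaled to library totals. Gene positions and lengths came from GENCODE and RefSeq of GRCm38 (mm10).

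Fractions with the same number come from 1 animal, so the numbers pair them. Correlations of their deviations from group means were 0.44 to 0.64 in the Aldh1l1-NuTRAP line, over 0.1 in 5 of 6 pairs of negative fraction and input and in 3 of 6 pairs of positive fraction and input, and in 0 of 5 pairs with whole tissue. After the one-way design of the study, the mouse is not a term in the results unless stated. Libraries of 1 group come from separate mice, no 2 of them agreed within sampling noise (lowest chi-square per degree of freedom 4.06), and depth gives counting error only.

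The 10 genes and all gene lists were chosen with earlier results of these data known. Besides the 10 genes, those named are any of the TREM2 pathway list, from the microglia, border macrophage, dendritic cell and disease-associated lists the 3 highest and 2 lowest by log2 fold change of the Cx3cr1-NuTRAP positive fraction over input, Cx3cr1, Aldh1l1, Gfap and C1qa as checks, and the 5 genes most correlated with Trem2. P2ry12 is among them as the second lowest of its list. The lists for astrocytes (0 of 11 genes higher and 7 lower), neurons (0 and 2 of 10), oligodendrocyte precursors (0 and 3 of 4), endothelial cells (2 and 0 of 8) and pericytes (0 and 2 of 5 tested) were to be named by the same rule but, as for oligodendrocytes, are given by counts only.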

Additional observations from a re-analysis of the deposited data

Results flagged for a closer look

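Of 40 groups of 5 or 6 libraries examined, 1 gene in 1 group each, 5 held a library far from the others; chance alone gives about 1 in 20. The positive fraction of mouse 194 stood above its group for Trem2 (237.9 CPM, next 150.0 CPM) and Cd68 (88.37 CPM, next 49.72 CPM). In the same library the 12 homeostatic microglia genes summed to 6475 CPM and the border macrophage list to 490.6 CPM, each the highest of its group. Their part was not tested. Without mouse 194 the log2 fold change over input was 3.51 for Trem2 and 2.93 for Cd68, both still called.

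For Lpl the negative fraction of mouse 155 stood apart (81.1 CPM, next 32.92 CPM), as did the whole tissue of mouse 210 (32.62 CPM, next 16.22 CPM), the library with the lowest total count. For Spp1 it was the input of mouse 155 (63.23 CPM, next 46.99 CPM).

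The lines differed in the log2 ratio of positive to negative fraction by an interaction test for 5 genes, each higher in the Cx3cr1-NuTRAP line, as were 29.9% of 13983 genes tested. The log2 difference was 6.24 for Trem2 (SE 0.58), 7.03 for Tyrobp (SE 0.51), 5.07 for Inpp5d (SE 0.36), 6.16 for Cd68 (SE 0.48) and 6.28 for Clec7a (SE 1.2). Clec7a passed the count filter only through the Cx3cr1-NuTRAP positive fraction, and its value depends on the prior count, since the Aldh1l1-NuTRAP positive fractions held 0, 0 and 3 counts.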

How the results depend on the processing

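Of 196 counts of called genes recomputed under alternatives, 169 stayed within 1.5 times the reported count. Spp1 was called lower in the positive against the negative fraction by DESeq2 and with the replicate block (1 gene in each, 0 reported). Between negative fraction and input, 1 gene was higher and 1 lower with more than 100 counts required and in DESeq2, and 2 were higher and 1 lower with the replicate block. Leaving out 1 mouse gave 0 to 3 higher and 0 to 1 lower. Between input and whole tissue, 0 genes were higher with all groups in one fit and 1 with the replicate block (2 reported), 0 were lower without a filter (1 reported), and leaving out 1 mouse gave 0 to 2 higher and 0 to 1 lower. For the positive fraction over whole tissue, leaving out 1 mouse gave 0 to 1 lower. In the Aldh1l1-NuTRAP line 5 genes were lower with the replicate block (3 reported) and 3 to 5 without 1 mouse. Between the positive fractions of the lines 1 gene, Cd9, was lower with all groups in one fit and in DESeq2 (0 reported), and 0 to 1 without 1 mouse. Over all genes, calls between negative fraction and input were 194 higher and 646 lower, 756 and 1290 in DESeq2 and 2431 and 2684 with the replicate block. The cause was not tested.

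Signs turned only for Lpl, Tyrobp and Cd9. Lpl over the negative fraction was 0.02 with the replicate block and -0.20 to 0.30 without 1 mouse (0.30 without mouse 155). Lpl between the positive fractions was -0.31 to 1.76 without 1 mouse, -0.31 without mouse 293 or 294. Without 1 mouse Tyrobp was -0.09 to 0.07 between negative fraction and input (0.07 without mouse 192), and -0.09 to 0.07 between input and whole tissue (0.07 and 0.00 without mice 209 and 277). Cd9 between input and whole tissue was -0.02 with all groups in one fit, -0.03 with the replicate block, and -0.03 to 0.04 without 1 mouse (-0.03 and -0.02 without mice 155 and 194). With library totals Cd9 was 0.03 between the positive fractions (-0.28 reported) and 0.09 in the interaction (-0.19 reported). The replicate block changed the call of no gene other than those given with it, and a block could not be fitted between lines, whose mice differ. For Cst7 and Itgax, and for Clec7a in astrocyte ribosomes, depth limits precision, and the whole tissue of mouse 210 holds 2 to 8 counts of Itgax and Clec7a and 0 of Cst7.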
